A study of Mus musculus with 4 samples.

Results

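Chemokine receptors of T cells were described across 4 mouse RNA sequencing libraries, with 9 genes chosen by symbol: Ccr2, Ccr4, Ccr6, Ccr8, Ccr9, Cxcr3, Cxcr4, Cxcr5 and Cxcr6. All 9 are listed in both deposited tables, out of 10679 rows in the DSS table and 23284 rows in the vector table. The first experiment measured splenic regulatory T cells (Treg) of Balb/c mice with the Foxp3-hCD2 reporter genotype. Both groups carry this reporter, which puts human CD2 on cells that express Foxp3, and hCD2 positive cells were purified. One group was untreated and the other drank dextran sulfate sodium (DSS) at 3% for 7 days, an agent that injures the colon lining. The second experiment transduced naive CD4 T cells, from C57BL6 mice that are wild type, with either of a pair of vectors, mock or Sox12, and is given below as the mock and the Sox12 library. Sox12 is a transcription factor of the SoxC group. Each group has 1 library. The ages and numbers of the mice, the culture of the transduced cells and any selection of transduced cells were not given in the sources used here.

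Chemokine receptors span the membrane several times and signal through inhibitory G proteins, which turn a gradient of secreted chemokine into directed movement and integrin adhesion. Each receptor binds 1 or a few chemokines, so the set that a T cell carries decides which tissues it can enter. In Treg, Ccr4 and Ccr8 are known from skin and other barrier tissues, Ccr6 and Ccr9 from the gut, Cxcr3 and Ccr2 from inflamed sites, Cxcr5 from B cell follicles and Cxcr4 from bone marrow.

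The values are FPKM, fragments per kb of transcript and scaled to the fragments of its library, so levels can be set side by side between genes of a library. A change is the difference of log2(FPKM + 1) within an experiment, which makes low genes look less changed than their ratio of FPKM, also given. With 1 library per group no test was possible, and no difference has a replicate check. A gene is called, as differing by at least 2 times, when that difference of logarithms is 1 or more in size, and it passed the filter when the mean of its 2 libraries was at least 1 FPKM. In bulk RNA, fewer cells carrying a receptor and less receptor RNA per cell cannot be told apart. The labelled cell types carry their markers. Foxp3 had 88.2 FPKM in the untreated library and 84.9 FPKM in the DSS library, and all 8 listed T cell identity genes passed the filter in both experiments. Sox12 had 1.56 FPKM in the mock library and 829 FPKM in the Sox12 library, which is the check of the vector labels. Low values of the vector table allowed its depth to be recovered, about 42.9 fragments per kb and FPKM with the mock vector and 45.1 with the Sox12 vector. The Treg libraries have no known depth, since that table lists genes above 1 FPKM and holds only 4 values between 0 and 0.1 FPKM.

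In Treg of DSS-treated mice, all 9 receptors had a higher value than in untreated Treg, by 0.794% to 40.9%. None reached a difference of 2 times. The median change was 0.17 on the log2(FPKM + 1) scale, against 0.05 over all 10545 genes past the filter, of which 66.1% were higher. All 9 receptors were above 1 FPKM in both libraries. Of all genes, 0.19% were called higher and 0.0759% lower, and 0 receptors were called in either direction.

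Of the gut receptors, Ccr9, which binds Ccl25 of the small intestine, had 2.88 FPKM in the untreated library and 4.06 FPKM in the DSS library. This ratio of 1.41 was the highest of the 9, and its change of 0.38 lay above that of 97.0% of genes. Ccr9 was also the lowest of the 9 in both libraries. Ccr6, the receptor for Ccl20 on Th17 cells and on some Treg, had 11.4 and 13.7 FPKM, a ratio of 1.20 and a change of 0.25. Its change lay above that of 91.5% of genes.

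Of the receptors known from inflamed tissue, Ccr2, which binds Ccl2 and also marks monocytes, had 13.8 FPKM in the untreated library and 16.9 FPKM in the DSS library. Its ratio was 1.23 and its change of 0.28 lay above that of 93.6% of genes. Cxcr3, which binds Cxcl9 and Cxcl10 and is a target of the Th1 factor Tbx21, had 40.7 and 41.0 FPKM. With a ratio of 1.01 it was the receptor that differed least, and 37.1% of genes had a lower change. Its direction turned with the scaling: the change was -0.039 with the median change of all genes set to 0, -0.025 with equal 75th percentiles and -0.013 with totals made equal over all but the 20 highest genes. Cxcr6, the receptor for Cxcl16 on tissue-resident T cells, had 4.18 and 4.74 FPKM, a ratio of 1.13.

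Of the lymphoid receptors, Cxcr4, which binds Cxcl12 and holds cells in bone marrow, was the most abundant in both Treg libraries. It had 141.8 FPKM in the untreated library and 170 FPKM in the DSS library, a ratio of 1.20 and a change of 0.26. It made up 56.0% of the summed FPKM of the 9 receptors in the untreated library and 58.0% in the DSS library, and was 3.48 and 4.14 times as high as Cxcr3, the next in order. Cxcr5, which guides follicular T cells and B cells towards Cxcl13, had 10.2 and 11.4 FPKM, a ratio of 1.12. Its partner factor in follicular T cells, Bcl6, had 8.48 and 8.53 FPKM.

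Of the skin and barrier receptors, Ccr4, which binds Ccl17 and Ccl22, had 21.5 FPKM in the untreated library and 23.3 FPKM in the DSS library, a ratio of 1.08. Ccr8, the receptor for Ccl1, had 6.96 and 7.98 FPKM, a ratio of 1.15. Both differences were below those of Ccr2, Ccr6, Ccr9 and Cxcr4 on the log2 scale. The order of levels was the same in both Treg libraries, from Cxcr4 over Cxcr3, Ccr4, Ccr2, Ccr6, Cxcr5, Ccr8 and Cxcr6 to Ccr9. With no replicates and no known depth, no spread can be set against the neighbours in this order.

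**Figure D1:**
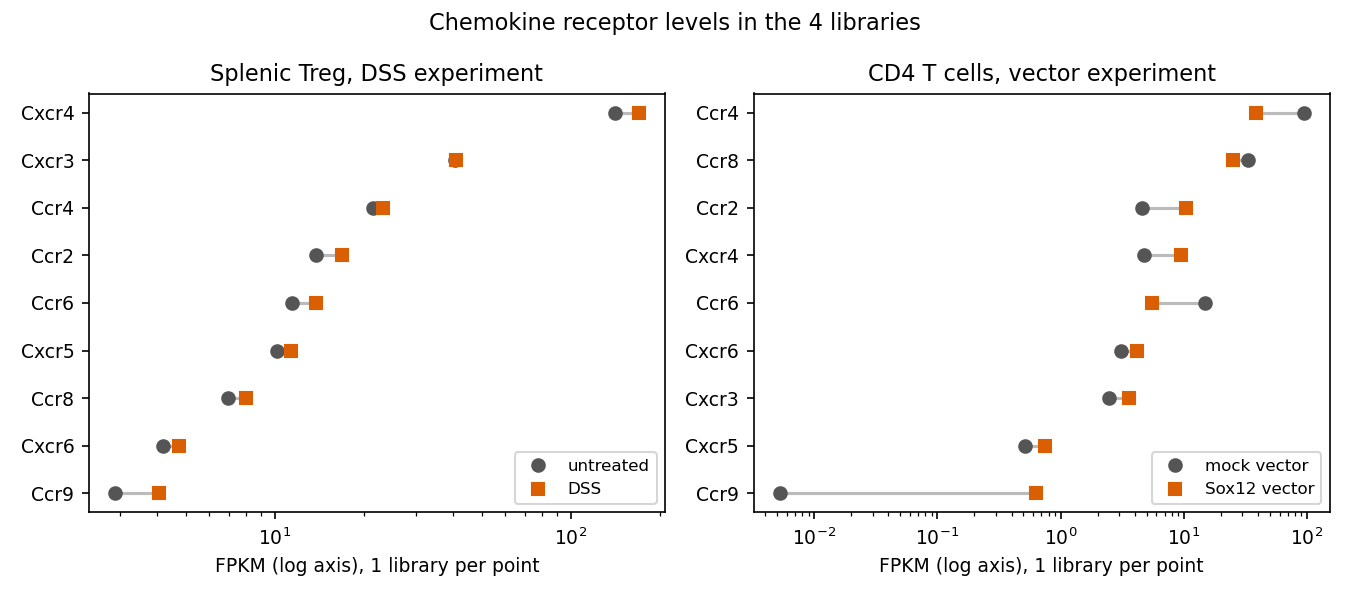
FPKM of the 9 receptors (log axis, 1 library per point) in the 2 Treg libraries on the left and the 2 vector libraries on the right, ordered by the treated library. In Treg every square lies at or to the right of its circle, whereas with the Sox12 vector Ccr4, Ccr6 and Ccr8 lie to the left of the mock vector.

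Other cells that carry these receptors were followed through their markers, and their part in the differences was not tested. Basophil and mast cell markers, 8 of 8 listed, were higher in 6 of 6 genes past the filter, and their summed level was 9.97 FPKM in the untreated and 32.7 FPKM in the DSS library. Genes were listed only when above 1 FPKM in at least 1 library, so a gene below that in the untreated library could only be higher. Among the 6 this fixed the direction of Gata2, Cd200r3 and Il4, but not of Mcpt8 (2.56 and 12.6 FPKM), Prss34 or Cpa3. Erythroid markers were higher in 9 of 9 (sums of 622 and 932 FPKM). Of the neutrophil and myeloid precursor markers 6 were listed (sums of 22.0 and 35.0 FPKM). The 4 past the filter, Mpo, Elane, Prtn3 and Ctsg, were higher, and the 2 neutrophil genes below it were lower, S100a8 at 1.08 and 0.678 FPKM and S100a9 at 1.19 and 0.449 FPKM. Both S100 genes were listed only through the untreated library, so their direction was fixed as well. Monocyte, macrophage and dendritic cell markers were higher in 2 of 5 (44.1 and 37.7 FPKM). The largest part of that sum was Ly6c1 (24.9 and 19.7 FPKM), which T cells also express. Cd68 and Cybb were higher, and Lyz2 (8.30 and 6.36 FPKM) and Mpeg1 (1.46 and 1.13 FPKM) were lower. B cell and plasma cell markers were higher in 1 of 4 (316 and 263 FPKM). Most of that sum was Igj (277 and 231 FPKM). Cd79a was higher (3.19 and 3.92 FPKM), and Cd79b (5.48 and 5.23 FPKM) and Cd74 (30.2 and 22.6 FPKM) were lower. Markers of NK cells and CD8 T cells were higher in 0 of 5 (34.7 and 29.8 FPKM). Of these lists of other cells, the basophil, erythroid and myeloid precursor lists had a higher sum in the DSS library. Of 6 Treg markers 2 were higher (782 and 765 FPKM). T cell identity genes had sums of 2048 and 2051 FPKM. Their median change was -0.00052, so setting it to 0 barely moved the receptors and could not turn any of the 9. With the median change of all genes set to 0 instead, 8 receptors were higher in the DSS library and Cxcr3 was lower.

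In the transduced CD4 T cells the receptors differed in both directions. With the Sox12 vector 6 of the 9 were higher than with the mock vector and 3 were lower, and of the 7 receptors past the filter 4 were higher, against 48.9% of all genes past it. Ccr2 was at least 2 times higher, a call met by 4.85% of all genes, and Ccr4 and Ccr6 were at least 2 times lower, a call met by 1.91%. By the ratio of FPKM Ccr2, Cxcr4 and Ccr9 passed 2, a looser rule for low genes, and the share of all genes passing it was not computed. Past the filter were 7 receptors, each above 1 FPKM in both libraries, and Ccr9 and Cxcr5 were below it. The median change of those 7 was 0.33, against -0.01 over all 10822 genes, but it was -0.41 over the 5 receptors with a mean of at least 5 FPKM. Of all genes 525 were called higher and 207 lower. T cell identity genes were lower in 6 of 8 cases with 1 of them called (median change -0.20), and with that median set to 0 the median of all genes moved to 0.19, the counts were 737 and 128, and 73.4% of genes were higher.

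The stretches of 250 bases before the annotated start of the receptors with the largest differences in the vector experiment are shown here, because Sox12 is a DNA-binding protein and these are the sequences nearest to each start. They are from RefSeq on GRCm38.p6, another build than the mm9 that the submitters' processing notes name. The table held 8 of the 9 receptors. Each is printed 5′ to 3′ on the gene's strand, and capitals mark matches to the motifs searched.
Ccr2, chr9:124101933-124102182, + strand: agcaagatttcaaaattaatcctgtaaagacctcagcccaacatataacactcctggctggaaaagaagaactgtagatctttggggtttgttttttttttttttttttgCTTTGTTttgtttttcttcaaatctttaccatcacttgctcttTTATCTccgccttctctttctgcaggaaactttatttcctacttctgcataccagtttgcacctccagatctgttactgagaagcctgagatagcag
Cxcr4, chr1:128592300-128592549, - strand: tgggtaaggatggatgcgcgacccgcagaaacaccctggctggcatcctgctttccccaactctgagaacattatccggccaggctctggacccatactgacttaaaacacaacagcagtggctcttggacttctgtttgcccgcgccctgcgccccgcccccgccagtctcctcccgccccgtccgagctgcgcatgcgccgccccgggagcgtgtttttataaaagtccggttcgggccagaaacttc
Ccr9, chr9:123766961-123767210, + strand: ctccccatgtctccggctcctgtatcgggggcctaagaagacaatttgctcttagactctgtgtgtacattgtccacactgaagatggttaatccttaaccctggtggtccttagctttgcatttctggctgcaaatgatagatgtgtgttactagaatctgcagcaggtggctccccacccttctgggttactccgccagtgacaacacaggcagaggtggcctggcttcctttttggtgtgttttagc
Ccr4, chr9:114496545-114496794, - strand: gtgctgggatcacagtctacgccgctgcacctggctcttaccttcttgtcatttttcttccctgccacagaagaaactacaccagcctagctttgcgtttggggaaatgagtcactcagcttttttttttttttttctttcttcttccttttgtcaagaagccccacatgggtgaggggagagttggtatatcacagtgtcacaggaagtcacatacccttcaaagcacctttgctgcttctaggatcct
Ccr6 first start, chr17:8235793-8236042, + strand: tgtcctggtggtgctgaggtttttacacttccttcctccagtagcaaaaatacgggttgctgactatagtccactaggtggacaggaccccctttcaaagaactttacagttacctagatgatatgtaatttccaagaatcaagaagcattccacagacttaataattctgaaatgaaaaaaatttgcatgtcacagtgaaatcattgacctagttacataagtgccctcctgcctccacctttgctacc
Ccr6 second start, chr17:8242276-8242525, + strand: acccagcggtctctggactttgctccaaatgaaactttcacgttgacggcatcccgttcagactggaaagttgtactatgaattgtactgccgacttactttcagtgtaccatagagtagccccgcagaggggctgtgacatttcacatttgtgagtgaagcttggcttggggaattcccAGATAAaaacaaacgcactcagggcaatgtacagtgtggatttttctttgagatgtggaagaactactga
Both strands were searched for the Sox motifs AACAAAG and AACAATG, the T-box motif AGGTGTGA, the forkhead motif GTAAACA and the GATA motif AGATAA. No 2 matches overlapped. Ccr2 held the Sox motif AACAAAG on the opposite strand, beginning 140 bases before the start, and the GATA motif on the opposite strand at 97 bases. The second start of Ccr6 held the GATA motif at 70 bases. Ccr8, not printed, held it on the opposite strand at 239 bases. The other windows held none of these letters. Among 32851 promoter windows of the same length, 5.03% hold AACAAAG, 3.29% AACAATG, 8.12% either of them, 1.12% AGGTGTGA, 3.17% GTAAACA and 9.99% AGATAA. A match here describes letters in a window and is not a binding site.

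The skin and barrier receptors were the most abundant of the 9 in these cells and were lower with the Sox12 vector. Ccr4 had 94.1 FPKM in the mock library and 38.8 FPKM in the Sox12 library. Its ratio was 0.412, with a 95% interval of 0.394 to 0.433 from counting error alone, and its change was -1.26. Ccr8 had 33.4 and 25.0 FPKM, a ratio of 0.748 (counting interval 0.697 to 0.806) and a change of -0.41 that was not called. Ccr4 was 2.82 times as high as Ccr8 with the mock vector and 1.55 times with the Sox12 vector. Gata3, the Th2 factor, differed in the other direction, with 23.0 and 34.2 FPKM.

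Ccr6 had 14.8 FPKM in the mock library and 5.48 FPKM in the Sox12 library, a change of -1.29, next to the -1.26 of Ccr4. Its ratio was 0.370, with a counting interval of 0.322 to 0.425, and with a pseudocount of 5 its change of -0.92 was not called, while that of Ccr4 was -1.18. The other gut receptor, Ccr9, was at the lower edge of detection with the mock vector, at 0.00526 FPKM, and had 0.637 FPKM with the Sox12 vector. By the recovered depth and the lengths of its annotated transcripts the mock value came to 0.591 to 1.17 fragments. It was taken as 1 fragment, which puts the Sox12 value at 127 fragments. The ratio was 121, with a wide counting interval of 21.4 to 4822, and its change of 0.70 on the log2(FPKM + 1) scale understates this. Ccr9 was the lowest of the 9 with both vectors, and with the Sox12 vector the counting intervals of its level and that of Cxcr5 overlapped.

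Of the receptors known from inflamed tissue, Ccr2 had 4.58 FPKM in the mock library and 10.4 FPKM in the Sox12 library, a ratio of 2.26 (counting interval 2.03 to 2.54). Its change of 1.03 lay just past the size rule and was 0.996 with equal 75th percentiles and 0.68 with a pseudocount of 5, so that it was not called there. Cxcr3 had 2.47 and 3.59 FPKM, a ratio of 1.45 (1.21 to 1.77). Tbx21 was called higher in the same libraries, with 5.07 and 16.2 FPKM. Cxcr6 had 3.09 and 4.16 FPKM, a ratio of 1.35 (1.14 to 1.59). These 3 receptors were all higher with the Sox12 vector, by less than 2 times for Cxcr3 and Cxcr6.

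Of the lymphoid receptors, Cxcr4 had 4.75 FPKM in the mock library and 9.56 FPKM in the Sox12 library, a ratio of 2.01 (counting interval 1.78 to 2.29). Its change of 0.88 was not called, and was 1.08 with the T cell identity genes set to 0. Cxcr5 had 0.512 and 0.745 FPKM, a ratio of 1.46 whose counting interval of 1.04 to 2.09 rested on about 57.4 and 87.8 fragments. Bcl6 had 2.86 and 1.74 FPKM. The part of Cxcr5 that lies over exons of Bcl9l on the other strand is 3.79% of its exonic bases, and Bcl9l had 3.48 and 6.84 FPKM. Whether strand was used in the authors' quantification was not stated in the sources used here, so reads of the 2 genes cannot be told apart there.

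**Figure D2:**
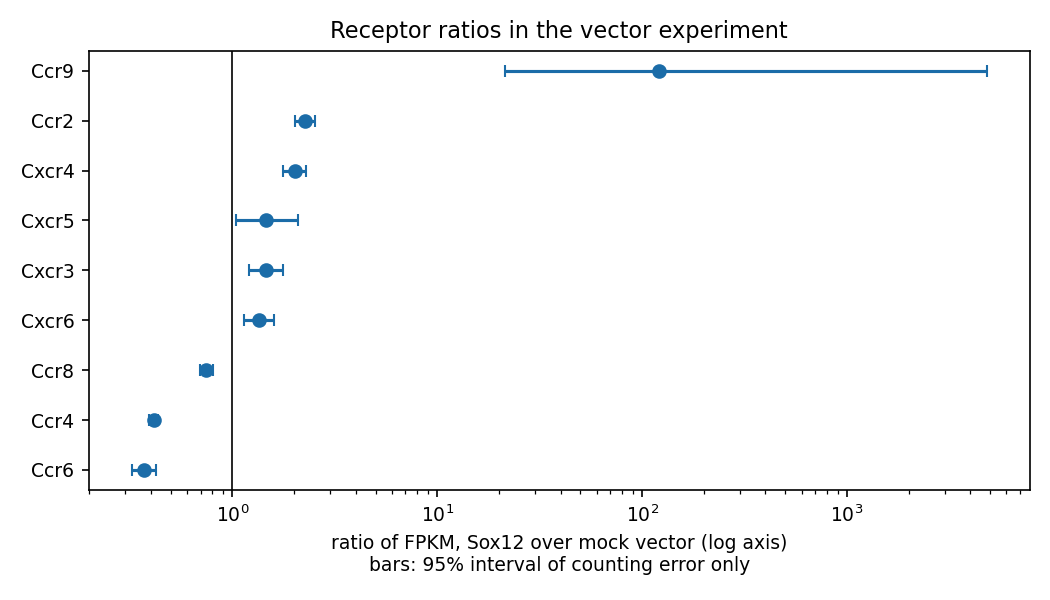
Ratio of FPKM with the Sox12 vector to the mock vector for each receptor (log axis), with 95% intervals of counting error only and a line at 1. The 3 receptors left of the line are Ccr6, Ccr4 and Ccr8, and the interval of Ccr9 runs from 21.4 to 4822 because its mock vector value is taken as 1 fragment.

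The intervals cover counting of fragments and neither the preparation of the libraries nor the animals. For all receptors but Ccr9 they use the shortest coding transcript of at least 1 kb of a later annotation and so tend to be wide. By them, the order of levels with the mock vector (Ccr4, Ccr8, Ccr6, Cxcr4, Ccr2, Cxcr6, Cxcr3, Cxcr5, Ccr9) had 2 of 8 neighbouring pairs that could not be separated, Cxcr4 with Ccr2 and Cxcr6 with Cxcr3. With the Sox12 vector the order was Ccr4, Ccr8, Ccr2, Cxcr4, Ccr6, Cxcr6, Cxcr3, Cxcr5 and Ccr9. There 3 of 8 pairs had overlapping intervals, Ccr2 with Cxcr4, Cxcr6 with Cxcr3 and Cxcr5 with Ccr9. Ccr6 stood above Ccr2 and Cxcr4 in the first order and below them in the second. The ratio of Ccr6 to Ccr2, which no scaling between the libraries can alter, was 3.23 with the mock vector and 0.529 with the Sox12 vector, and that of Ccr4 to Ccr2 was 20.6 and 3.74. In Treg the ratio of Ccr6 to Ccr2 was 0.830 in the untreated and 0.812 in the DSS library.

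Set side by side, Ccr2, Ccr9, Cxcr3, Cxcr4, Cxcr5 and Cxcr6 were higher in the treated library of both experiments, with Cxcr3 in Treg depending on the scaling as above. Ccr4, Ccr6 and Ccr8 were higher with DSS and lower with the Sox12 vector. The experiments differ in strain, cell type and treatment, and the difference between them was not tested. The tables were made separately, so their levels are set side by side only as values. Cxcr4 made up 56.0% of the summed FPKM of the 9 receptors in untreated Treg, while with the mock vector Ccr4 made up 59.7%, which was 39.5% with the Sox12 vector. The sum itself was 158 FPKM in the mock library and 98.3 FPKM in the Sox12 library. Of genes listed in both tables, those nearest to Ccr6 by Euclidean distance over the 4 log2(FPKM + 1) values were Vkorc1 (0.43), Pxmp4 (0.45) and Pde4d (0.47), out of 10663.

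**Figure D3:**
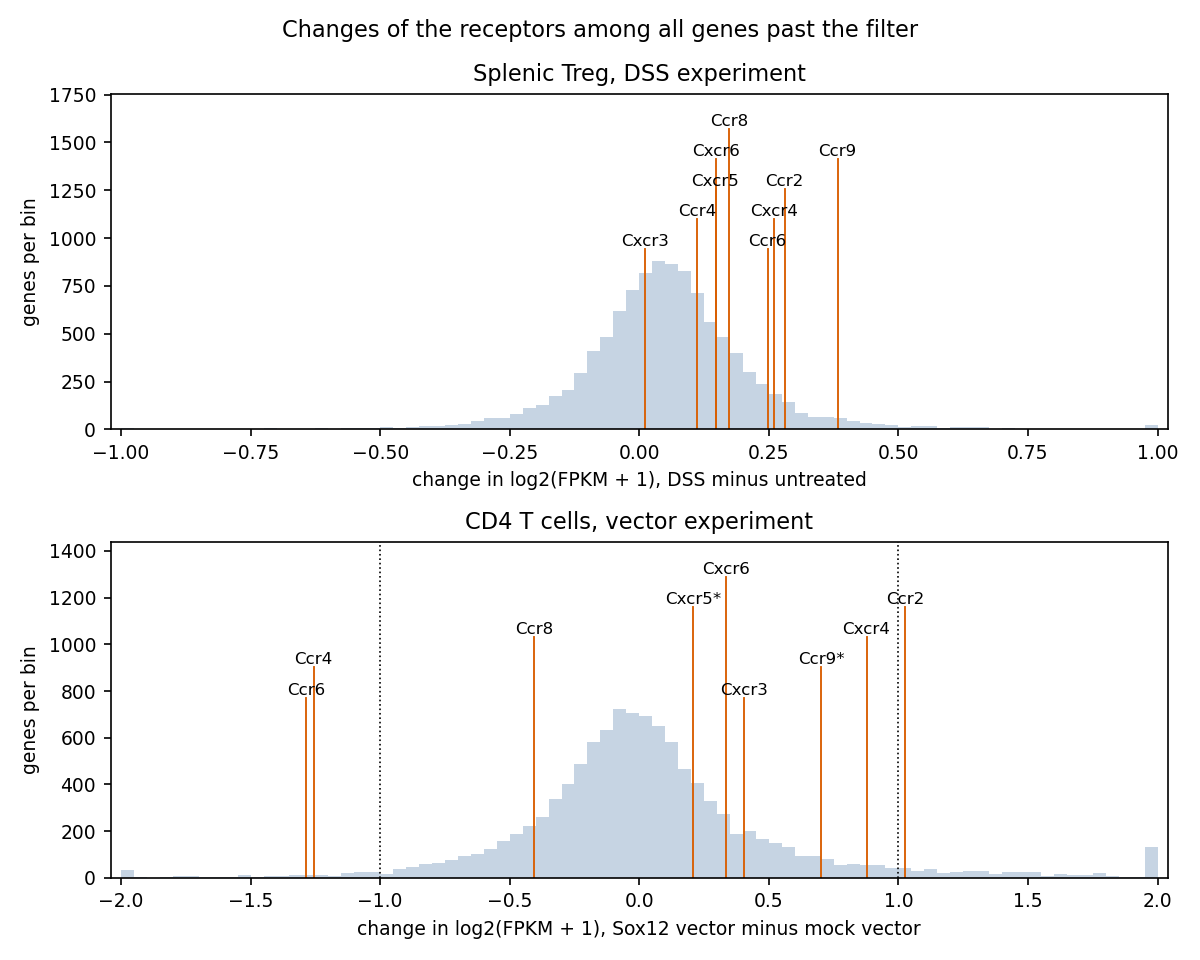
Histograms of the change in log2(FPKM + 1) of all genes past the filter, with each receptor as a vertical line; the outermost bins collect genes beyond the axis, stars mark receptors below the filter, and dotted lines mark a change of 1 in size. In Treg the 9 lines run from 0.01 to 0.38, and in the vector experiment they run from -1.29 to 1.03.

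Markers of other cells differed in the vector experiment as well, and their part in the receptor differences was not tested. All 10 markers of NK cells and CD8 T cells were higher with the Sox12 vector, with summed levels of 155 and 515 FPKM. Of them 7 were called higher, a call met by 4.85% of all genes. Cd8a had 0.580 and 5.58 FPKM and Gzma, a granzyme, 2.35 and 57.2 FPKM. Cd8b1 (4.80 and 7.68 FPKM) was not called, nor was Eomes, which is also among the lineage factors listed here. Whether the CD4 T cells themselves carried the RNA of these markers was not tested. NK cells and CD8 T cells can carry Cxcr3, Cxcr6 and Ccr2. Of 12 listed monocyte, macrophage and dendritic cell markers 2 passed the filter, Cd68 and Ly6c1, and summed levels were 13.6 and 37.6 FPKM. Ly6c1, which T cells also express, had 10.1 and 33.5 FPKM. Of the 12 markers 5 were higher and 4 lower when no filter was set. Below the filter Itgam (0.0968 and 0.425 FPKM), Itgax (0.0340 and 0.141 FPKM) and Mpeg1 (0.0419 and 0.0750 FPKM) were higher, while Lyz2 (0.0254 and 0.0242 FPKM), Cd14, Emr1 and Cybb were lower. The defining markers Csf1r, Fcgr1 and Siglech were listed at 0 in both libraries. B cell and plasma cell markers summed to 40.4 and 30.9 FPKM, mostly Cd74 (37.7 and 27.5 FPKM). Erythroid markers summed to 75.6 and 19.2 FPKM, and basophil and mast cell markers to 10.8 and 10.0 FPKM, mostly the T cell cytokine Il4. Of 8 neutrophil markers 6 were at 0 with the mock vector and 4 with the Sox12 vector.

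Other chemokine receptors, 15 genes in the list, added few expressed members. In Treg 2 passed the filter and 0 were called. Ccr7, which directs T cells into lymph nodes and is the most abundant of them, had 123 FPKM in the untreated library and 118 FPKM in the DSS library, and Ccrl2 had 2.29 and 2.56 FPKM. In the vector libraries 2 passed the filter and 0 were called. Ccr7 was lower at 166 FPKM in the mock library and 88.5 FPKM in the Sox12 library (change -0.90), and Ccrl2 had 3.06 and 2.57 FPKM.

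Several of the receptor genes lie near each other on chromosome 9, in an annotation of GRCm38. In order along the chromosome they include Ccr9, Cxcr6, Xcr1, Ccr1, Ccr1l1, Ccr3 and Ccr2, with the autophagy gene Fyco1 spanning Cxcr6 on the other strand. The changes with the Sox12 vector were 0.70 for Ccr9, 0.33 for Cxcr6 and 1.03 for Ccr2. Between Cxcr6 and Ccr2, Ccr1 had 0.593 and 0.605 FPKM, Xcr1 had 0.0561 and 0.0729 FPKM and Ccr3 had 0.0564 FPKM and 0. Fyco1 had 3.39 and 2.84 FPKM and shares no exonic base with Cxcr6. Ccr4 and Ccr8, elsewhere on the same chromosome, were lower. Chemokine receptor genes include close paralogs, and of the 50-base windows of Ccr2 transcripts 1.91% occur in another gene. For Ccr9 that share was 20.1%, mostly from an overlapping transcript of the later annotation, and for the other 7 receptors it was at most 1.86%.

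Ligands of the 9 receptors were scarce in the sorted Treg, where 3 of 15 were listed and all 3 were lower in the DSS library. For Cxcl10 and Ccl25 (1.23 and 0.960 FPKM) the listing fixed this direction, since only their untreated value was above 1 FPKM. Cxcl10, the interferon-induced ligand of Cxcr3, had 1.70 FPKM in the untreated library and 0.783 FPKM in the DSS library, and Ccl1 had 1.46 and 1.06 FPKM. In the vector libraries 4 of 15 passed the filter, and 0 were called. Ccl1, the ligand of Ccr8, was the most abundant with 199.7 and 167 FPKM, a change of -0.26, next to the -0.41 of its receptor. Ccl22, a ligand of Ccr4, had 12.4 and 11.9 FPKM, while Ccr4 itself was 0.412 times its mock vector level. The other 2 ligands past the filter were higher with the Sox12 vector: Ccl25, the ligand of Ccr9, at 1.47 and 3.02 FPKM (ratio 2.05, change 0.70) and Cxcl10 at 0.604 and 1.45 FPKM (ratio 2.40, change 0.61).

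Signalling genes that the receptors share had a median change near 0 in both experiments. Of 31 genes, which include G protein subunits, their effectors, arrestins and receptor kinases, 30 passed the filter and 17 were higher with DSS, with a median change of 0.01 and 0 calls. The most abundant were Coro1a, an actin regulator, at 786 and 746 FPKM and the small GTPase Rac2 at 379 and 363 FPKM. With the Sox12 vector 14 of 30 were higher and the median change was -0.07. Both signs depended on the scaling: with the median of all genes set to 0 the Treg median was -0.04 with 10 of 30 higher, and with the T cell identity genes set to 0 the vector median was 0.13 with 20 of 30 higher. The 1 gene called was Gng2, a G protein gamma subunit, with 23.9 and 52.1 FPKM. Regulators of G protein signalling (Rgs), which shorten the response of chemokine receptors, had 10 genes in the list. In Treg 6 of 9 were higher with 0 calls, or 4 of 9 with the median of all genes set to 0, while the 2 most abundant were lower, Rgs10 at 162 and 138 FPKM and Rgs1 at 105 and 81.6 FPKM. With the Sox12 vector 5 of 10 were higher. Rgs12 had 1.16 and 10.7 FPKM and was called higher. Rgs11 (9.34 and 3.07 FPKM) and Rgs1 (109 and 51.5 FPKM) were called lower, and Rgs1 is the member of this list best known for restraining chemokine receptors in T cells.

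**Figure D4:**
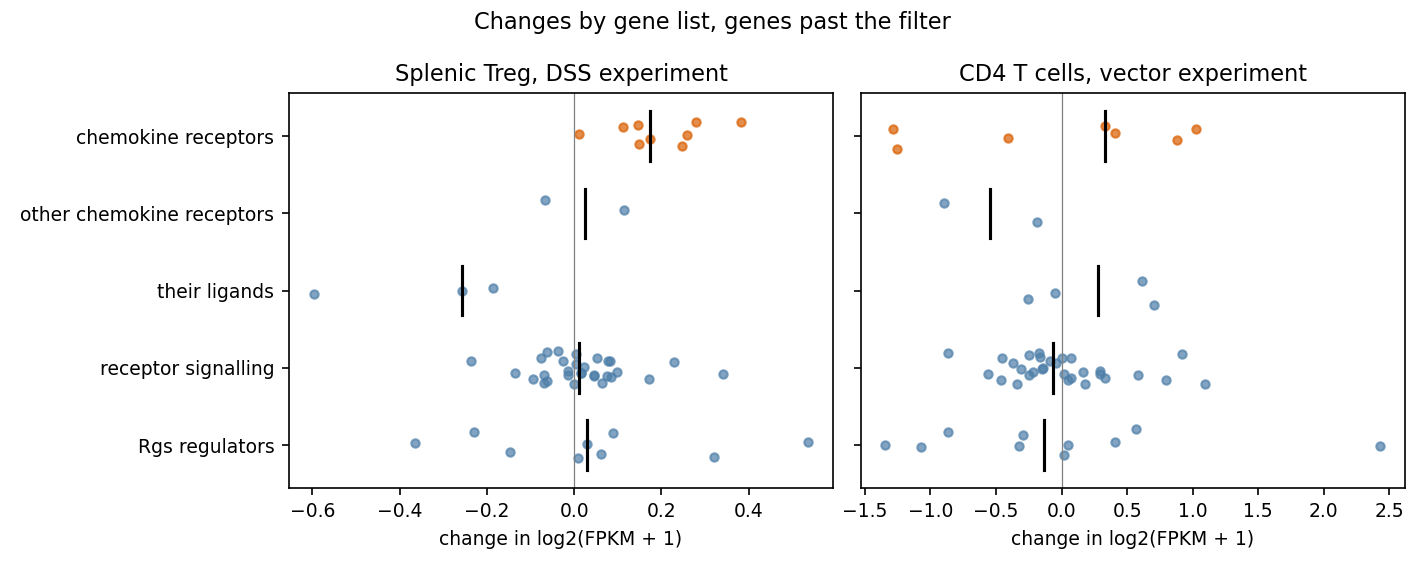
Change in log2(FPKM + 1) of each gene past the filter (points, spread vertically for legibility) in the chemokine receptors and 4 related lists, with a bar at each list's median. In Treg the receptor median of 0.17 lies to the right of the signalling median of 0.01, and in the vector experiment the receptors spread from -1.29 to 1.03.

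Transcription factors linked to these receptors were measured beside them. In Treg 0 of 7 were called. Sox12 had the largest change, 0.55, with 0.715 and 1.52 FPKM (ratio 2.12). Below 1 FPKM in the untreated library, it was listed only through its DSS value, so its direction was fixed by the listing. Klf2, which drives lymphoid egress genes, had 171 and 157 FPKM, Tbx21 2.88 and 2.98 FPKM, and Gata3 38.8 and 40.7 FPKM. With the Sox12 vector 4 of 7 were called higher, a call met by 4.85% of all genes. Among these 4 is Sox12 itself, whose call was fixed by the vector. The others were Foxp3 (20.9 and 127 FPKM), Klf2 (8.06 and 46.7 FPKM) and Tbx21. Bcl6 was the 1 that was lower, with a change of -0.49 that was not called.

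**Figure D5:**
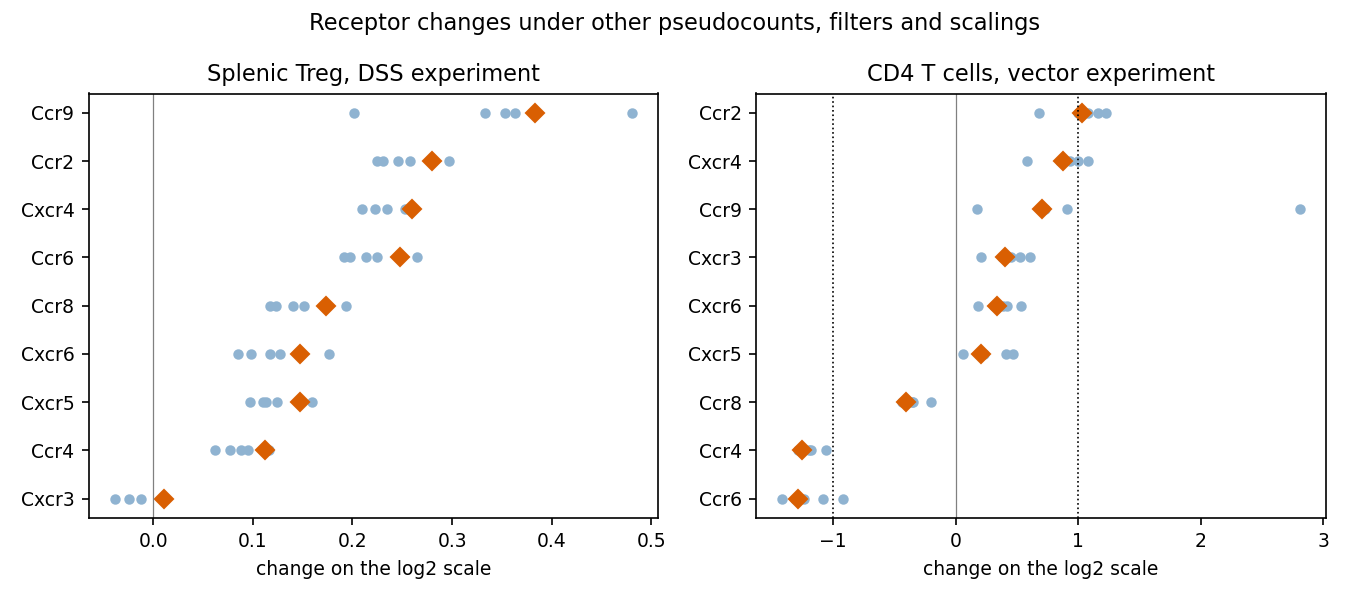
Change of each receptor on the log2 scale as reported (diamonds) and under the other pseudocounts, filters and scalings (circles), in Treg on the left and the vector experiment on the right, where dotted lines mark a change of 1 in size. Only Cxcr3 in Treg has circles on both sides of 0, and Ccr2, Ccr6, Ccr9 and Cxcr4 in the vector experiment have circles on both sides of a dotted line.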

How the data were processed

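RNA was sequenced from 4 libraries, from total RNA, and per the labels' protocols the library kit keeps strand. The deposited DSS table holds linear FPKM and a ratio of the 2 libraries that the authors computed. The deposited vector table holds log2(FPKM + 1) and a log2 difference computed by the authors; that scale was read from the values, which were turned back to FPKM. Cufflinks and mm9 are named in the submitters' processing notes, with no version. No aligner or annotation was given in the sources used here. FPKM was normalised in each library and does not keep counts. Samples were grouped by title and columns matched to titles.

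Rows named as dates were left out (16 and 25). A pseudocount of 1 FPKM and a filter on the mean (1 FPKM or more) were used. Fragments were recovered in the vector table from values below 0.1 FPKM: the value of 1 fragment with the Sox12 vector was 0.954 of that with the mock vector (287 of 1707 genes), and fragments per kb were the most frequent value among genes with 1 annotated transcript (35 of 146 and 41 of 191 genes). Intervals are exact and conditional on the summed count. The steps were tested on simulated data. The members and lists were chosen with earlier results of these data known. Some genes of the lists are not reported here and are left out of the lists' counts. Named genes are all members and, of each other list, up to 4 called genes or else the 2 with the highest mean, with all lineage factors allowed and marker lists given by counts, sums and defining markers. Marker and ligand genes beyond these, and genes beside or overlapping a receptor, were chosen after their values were seen. Python 3.11.15, pandas 2.3.3 and scipy 1.17.1 were used. Alternatives were 2 pseudocounts, 2 filters and 4 scalings.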

Additional observations from a re-analysis of the deposited data

How the results depend on the processing

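The directions of the receptors rest on 1 library per group, so no replicate could be left out. No paired analysis was possible because each group has 1 library. Each receptor's change was recomputed under up to 8 alternatives. The pseudocounts and filters could not turn a direction, because neither alters which library has the higher FPKM. Only the scalings could do so, and the totals given next also count the recomputations whose direction was fixed in advance. In Treg 67 of 70 recomputed changes kept their direction, and the 3 that turned were those of Cxcr3 (-0.0387 with the median of all genes at 0, -0.0246 with equal 75th percentiles and -0.0127 with totals made equal over all but the 20 highest genes). In the vector experiment all 68 kept their direction, again counting those under the pseudocounts and filters, which could not turn. With a pseudocount of 5 the median change of the receptors was 0.18, 0 were called higher and 1 lower, and Ccr6 was at -0.92. With equal 75th percentiles 0 were called higher, against 498 of all 10814 genes past the filter there. With the T cell identity genes at 0 the median was 0.54 and 2 were called higher, Ccr2 and Cxcr4, against 737 of all 10822 genes. With the filter raised to 5 FPKM the median was -0.41, over 5 receptors. With a pseudocount of 0.1 Ccr9 had a change of 2.81. Calls over all 10545 genes in Treg were 39 higher and 20 lower with a pseudocount of 0.1 and 6 and 3 with 5, against 20 and 8. Over all 10822 genes in the vector experiment they were 682 and 335 or 222 and 94, against 525 and 207. Depth limits Ccr9 with the mock vector (taken as 1 fragment) and Cxcr5.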
